A study of Mus musculus with 20 samples.

Results

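The Dlk1-Meg3-Dio3 domain is an imprinted region of mouse chromosome 12, here a run of promoter windows chosen by their position on build GRCm39, the first starting at 109415749 and the last ending at 110292318. It holds 120 of the 54034 windows of the deposited methylation table. The region was selected on measured values, the methylation levels of control and mutant embryos, so the difference between these groups is given below as a description, without a test. Each window runs from 3000 bases before a transcription start to 499 bases after it. The table gives windows by position, with no gene names. A single window is tied to Meg3, and the other members (Dlk1, Rtl1, Rian, Mirg and Dio3) are described through the sub-region they belong to.

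Bisulfite sequencing read the DNA of single blastocysts, the stage just before implantation, after polyadenylated RNA had been captured from the same lysate. The control group had 10 embryos (replicates 1 to 10), labelled Control. The mutant group had 10 embryos (replicates 11 to 20), labelled Padi6-mutant and obtained, per the series text, from oocytes carrying the Padi6 P620A substitution. PADI6 belongs to the subcortical maternal complex, which oocytes store for early development. The labels give no strain, sex, mother, litter or age of the mothers. Embryos of a group can therefore share a mother, and p-values measure only the spread between these embryos. Methylation levels do not check the Padi6 genotype.

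In an imprinted domain the chromosomes inherited from father and mother are used differently. Dlk1 (a membrane protein related to Notch ligands), Rtl1 (a retrotransposon-derived protein needed for placental capillaries) and Dio3 (a deiodinase that inactivates thyroid hormone) are expressed mainly from the paternal chromosome. Meg3, Rian and Mirg are maternally expressed long non-coding RNAs, and their transcripts host arrays of C/D-box snoRNAs and microRNAs. The imprint is set in sperm as DNA methylation of an intergenic control region between Dlk1 and Meg3, and DNMT1 with its partner UHRF1 copies such methylation at each cell division. The Meg3 promoter itself is known to gain its paternal methylation only after implantation.

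The promoters of 5 of the 6 members were found by symbol among the RefSeq promoter sequences and are shown to make visible how many sites each offers for methylation. CG dinucleotides, where methylation is read, are in capitals. Coordinates are on GRCm38.p6, the build of that table, and are not those of the windows. For Dlk1 and Dio3 the 250 bases before the start are given, and for the non-coding genes 250 bases before to 50 after it.
Dlk1, GRCm38.p6 chr12:109452573-109452822, plus strand: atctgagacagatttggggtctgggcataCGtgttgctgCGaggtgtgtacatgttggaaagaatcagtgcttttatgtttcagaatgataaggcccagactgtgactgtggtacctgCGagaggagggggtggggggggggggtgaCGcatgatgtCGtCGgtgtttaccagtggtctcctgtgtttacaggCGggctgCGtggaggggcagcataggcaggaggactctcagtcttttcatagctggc
Meg3, GRCm38.p6 chr12:109540746-109541045, plus strand: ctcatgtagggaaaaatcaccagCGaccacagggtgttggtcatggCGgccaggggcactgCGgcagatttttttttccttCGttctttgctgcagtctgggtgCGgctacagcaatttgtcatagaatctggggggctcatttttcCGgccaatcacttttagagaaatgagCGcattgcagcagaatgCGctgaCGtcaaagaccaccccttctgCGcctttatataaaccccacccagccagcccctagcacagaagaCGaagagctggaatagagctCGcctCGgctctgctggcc
Rian, GRCm38.p6 chr12:109603695-109603994, plus strand: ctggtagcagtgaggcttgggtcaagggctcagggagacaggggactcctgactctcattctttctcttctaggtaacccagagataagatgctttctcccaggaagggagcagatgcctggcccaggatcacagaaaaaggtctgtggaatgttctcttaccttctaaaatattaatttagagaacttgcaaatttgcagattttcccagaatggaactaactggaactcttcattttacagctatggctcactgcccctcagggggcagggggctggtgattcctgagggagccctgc
Mirg, GRCm38.p6 chr12:109734731-109735030, plus strand: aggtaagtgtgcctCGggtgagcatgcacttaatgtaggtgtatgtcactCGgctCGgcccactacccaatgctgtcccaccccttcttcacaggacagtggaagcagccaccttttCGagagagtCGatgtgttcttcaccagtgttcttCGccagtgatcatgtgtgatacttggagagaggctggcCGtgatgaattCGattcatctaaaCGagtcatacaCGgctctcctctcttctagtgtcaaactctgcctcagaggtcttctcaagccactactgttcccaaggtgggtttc
Dio3, GRCm38.p6 chr12:110278980-110279229, plus strand: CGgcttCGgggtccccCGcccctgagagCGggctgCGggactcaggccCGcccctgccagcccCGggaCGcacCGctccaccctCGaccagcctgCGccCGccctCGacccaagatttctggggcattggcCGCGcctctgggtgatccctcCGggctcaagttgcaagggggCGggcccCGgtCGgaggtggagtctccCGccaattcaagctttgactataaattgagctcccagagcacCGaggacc
Over the full 300 bases the Dio3 promoter had 25 CG dinucleotides, a count that 18.4% of the 32851 promoters in the table reached. The first of 2 annotated Meg3 starts had 13 (reached by 37.9%), Mirg 10 (43.5%), Dlk1 9 (45.8%) and Rian 0. The median over all promoters was 7. These counts describe 300 bases each and not the 3500 bases of a window.

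The stretch from Meg3 to the end of Mirg is dense in small-RNA genes. In RefSeq order, 60 microRNA genes and 19 snoRNA genes lie there. Of the microRNA genes, 17 lie before Rian and 39 from Mir379 on. The rest (Mir341, Mir1188, Mir370 and Mir882) lie between Rian and Mir379, as do all 19 snoRNA genes. The 60 genes had 112 mature microRNAs with 102 distinct seeds (bases 2 to 8, which pair with targets). Only 10 seeds were shared by more than 1 gene. A few mature sequences are shown, with the seed in capitals, to show 3 of the shared seeds, each with both of its genes, and 2 seeds found in 1 gene of the array.
miR-379-3p: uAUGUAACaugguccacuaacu
miR-411-3p: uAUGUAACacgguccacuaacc
miR-379-5p: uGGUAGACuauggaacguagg
miR-1193-5p: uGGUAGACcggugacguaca
miR-410-5p: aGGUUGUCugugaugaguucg
miR-494-5p: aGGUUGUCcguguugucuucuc
miR-127-3p: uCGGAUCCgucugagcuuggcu
miR-410-3p: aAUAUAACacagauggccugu
The first 6 sequences form pairs with the same seed, and the seeds of miR-127-3p and miR-410-3p occurred in no other gene of the array.

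Coverage differed between embryos. The number of windows with a value ran from 4984 to 46950 in control and from 2875 to 43812 in mutant embryos. With a limit of 30000 windows, 6 control and 3 mutant embryos were densely covered, and 4 control and 7 mutant embryos sparsely covered. Read depth is unknown, so no interval can be given for a single level, and sparse embryos give coarse levels. Within the domain, densely covered embryos had a value in 96 to 117 of the 120 windows, and sparsely covered ones in 9 to 57.

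The small-RNA stretch was the part of the domain where the embryo levels of the groups did not overlap. It comprises the 95 windows between 109507424 and 109714811, which start after the end of the Meg3 window and run up to the widest window-free gap (75625 bases). The mean level of a control embryo over its covered windows ranged from 42.5% to 66.7% (median 51.2%). In mutant embryos it ranged from 0% to 30.3% (median 15.0%). All 10 mutant embryos lay below the lowest control embryo, so the groups did not overlap. The means were 54.5% ± 7.81 (SD, n = 10) and 14.8% ± 11.1 (SD, n = 10), a difference of -39.7 percentage points that left mutant embryos at 27.1% of the control level.

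Coverage moved with the size of this difference. Densely covered control embryos lay close together, from 42.5% to 54.4% (49.8% ± 3.89, SD, n = 6), and sparsely covered ones were higher, from 51.5% to 66.7%. The 3 densely covered mutant embryos stood at 23.6%, 9.92% and 27.0%, and the 7 sparsely covered ones ranged from 0% to 30.3%. Within densely covered embryos the difference was -29.6 points and within sparsely covered ones -49.1 points, with no overlap of the groups in either. Of the 2 mutant embryos at 0%, replicate 17 had a value in 11 windows of the stretch and replicate 18 in 4. The part of coverage in these sizes was not tested.

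**Figure D1:**
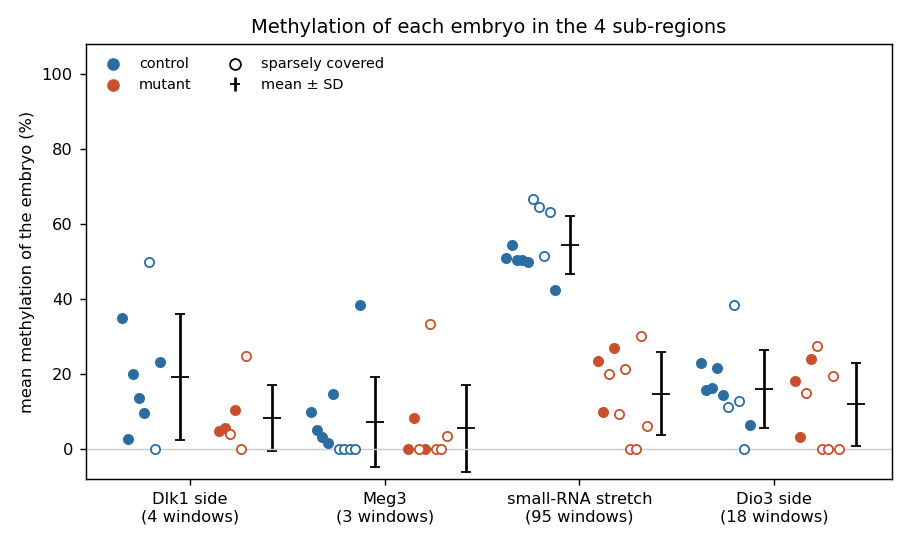
Mean methylation in percent of each embryo (points; open points are sparsely covered embryos) in the 4 sub-regions, with the group mean and SD beside them. In the small-RNA stretch all control embryos lie between 42.5% and 66.7% and all mutant embryos between 0% and 30.3%, whereas the groups overlap in the other 3 sub-regions.

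The Meg3 promoter was little methylated in both groups. At the Meg3 window the 9 control embryos with a value ranged from 0% to 22.2% (median 0%), and 5 of them were at 0%. The 6 mutant embryos ranged from 0% to 33.3% (median 2.63%), and 3 were at 0%. The groups overlapped over the whole control range, with means of 4.85% ± 8.0 (SD, n = 9) and 8.52% ± 13.1 (SD, n = 6). The window at 109504051 shares nearly all of its sequence and had the same mutant values.

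The last window overlapping the Meg3 window, starting at 109507222, had means of 8.29% and 0%. The 3 Meg3 windows together came to 7.37% ± 12.01 (SD, n = 10) in control embryos. Mutant embryos came to 5.65% ± 11.6 (SD, n = 8). Control replicate 10 stood far above the other control embryos here, at 38.5% from 1 window. Mutant replicate 15 did so in its group, at 33.3% from 2 overlapping windows. The direction of the small Meg3 difference turned with the choice of window. It was -8.29 points when the last of the overlapping windows was kept and 3.67 points when the first was kept, and it was -9.50 points in densely and 7.37 points in sparsely covered embryos. Without control replicate 10 it was 1.73 points.

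The next window, at 109507424, is the first of the stretch by position, but it shares 3298 of its 3500 bases with the Meg3 window at 109507222, so the values of these windows are not independent. Its 7 control embryos ranged from 0% to 29.4% (median 5%) and its 6 mutant embryos were all at 0%. From the window at 109527126 on, 23.2 kb after the Meg3 window, control means were at least 12.5% at every window up to the end of the stretch.

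On the Dlk1 side, levels were low to intermediate and the groups overlapped. The domain opens with a window at 109415749 that was at or near 0% in both groups: 4 of 5 control embryos and 3 of 4 mutant embryos were at 0%, and the highest values were 2.78% and 8.33%. The window at 109482167 ranged from 0% to 50% in 7 control embryos (median 14.3%), and its 4 mutant embryos were at 0%, 0%, 0% and 11.1%. The covered window nearest before Meg3, at 109495367, ranged from 0% to 75% in 7 control embryos (median 25%) and stood at 0%, 0%, 14.3%, 14.3% and 50% in 5 mutant embryos. It overlaps the window at 109493817, whose means were 25.1% and 11.3%.

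Over its 4 windows the Dlk1 side came to 19.3% ± 16.8 (SD, n = 8) in control embryos. Mutant embryos came to 8.39% ± 8.81 (SD, n = 6). The difference of -10.95 points was smaller than the control SD, with 5 of 6 mutant levels under the control mean. It left mutant embryos at 43.4% of the control level. In densely covered embryos the means were 17.45% (n = 6) and 7.06% (n = 3), or 40.4% of the control level. The stretch stood at 40.6% in those embryos, so there the relative differences were alike. The 3 mutant levels of the Dlk1 side lay within the control range. No value of the Dlk1 side was present in 6 of the 20 embryos.

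**Figure D2:**
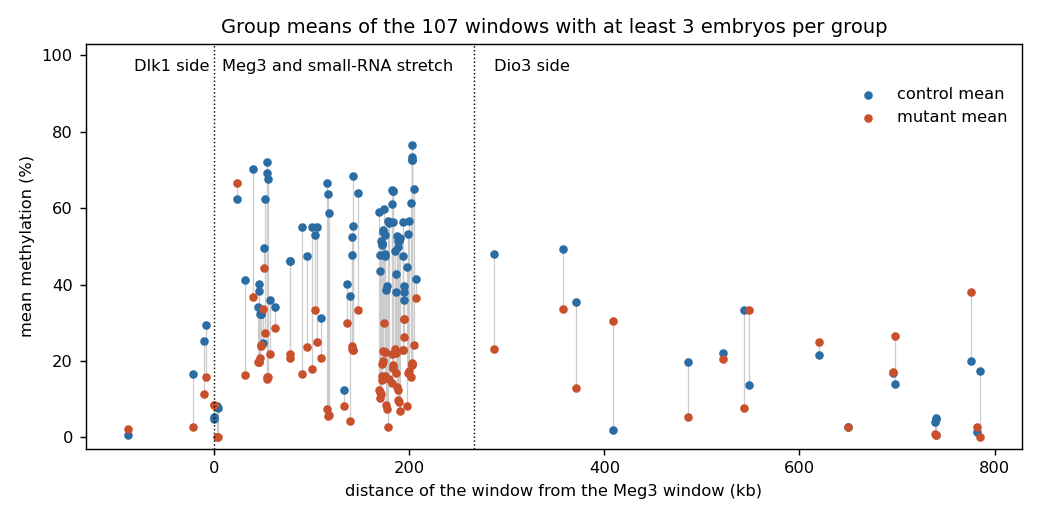
Mean methylation in percent of control (blue) and mutant (orange) embryos at each of the domain windows with at least 3 embryos per group, by distance in kb from the Meg3 window; grey lines join the means of a window. Control means are low at the Meg3 window and mostly between 30% and 75% from 23.2 kb to 207.4 kb, where mutant means are lower at all but 2 windows.

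Within the stretch nearly every window pointed the same way. Of its 95 windows, 82 were covered in 3 or more embryos per group, and the mutant mean was the lower one at 80 (97.6%, against 55.8% of all windows). The median difference over the 82 windows was -32.6 points, against -1.07 points over all 37645 windows of the table that met the same minimum. A difference of at least 20 points towards lower levels was seen at 62 of the 82 windows, and at 9.90% of all windows. A difference of at least 20 points towards higher levels was seen at 0 of the 82 windows, and at 5.20% of all. At 16 of the 82 windows every mutant value lay below every control value, which held for 1.02% of all windows. The reverse held at 0 of the 82 windows and at 0.327% of all. As the region was picked for this contrast, these shares describe it and support nothing further.

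Many of these windows share sequence. Among windows that do not overlap, 26 had at least 3 embryos per group, and 18 of them were lower by at least 20 points, 6 with no overlap of the groups. The shares over all windows (9.90% and 1.02%) include windows that overlap each other. No share was counted over all windows that share no sequence. In densely covered embryos alone, 54 of 68 windows were lower by at least 20 points, against 8.69% of all windows in those embryos. At 15 of the 68 the groups did not overlap, against 2.14% of all. With at least 5 embryos per group, 23 of 35 windows were lower by at least 20 points, against 6.45% of all, and 1 had no overlap, against 0.304%. Starting levels differed too: the median control mean was 51.5% in the stretch and 9.66% over all windows, and a window cannot be lower by more than its control mean.

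Beside its first window, which overlaps a Meg3 window, the stretch falls into 4 blocks of windows separated by at least 5000 bases. In the first block (109527126 to 109585191, 23 windows) control embryos stood at 50.7% ± 23.5 (SD, n = 10) and mutant embryos at 23.5% ± 14.4 (SD, n = 7). In the second (109594508 to 109625340, 13 windows) the levels were 49.8% ± 10.5 (SD, n = 8) and 15.7% ± 17.7 (SD, n = 7). In the third (109632303 to 109656410, 13 windows) they were 56.9% ± 21.7 (SD, n = 8) and 21.7% ± 17.4 (SD, n = 5). The fourth block (109672494 to 109714811, 45 windows) had a value in every embryo, with 57.2% ± 12.9 (SD, n = 10) and 15.9% ± 16.01 (SD, n = 10), and the groups overlapped at 1 mutant embryo. The groups overlapped in the other blocks too. In the first, 0 of 7 mutant embryos lay below the lowest control embryo, replicate 9 at 0%. In the second 6 of 7 did, and in the third 3 of 5.

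Neighbouring block means differ by less than 1 SD between embryos in both groups. That SD is not the spread of a difference between blocks, which share embryos but not all of them. An order of the blocks was not tested. The first block was the least uniform. There 9 of 19 windows with enough embryos were lower by at least 20 points, against 7 of 9 in the second block, 6 of 8 in the third and 40 of 45 in the fourth. Densely covered control embryos ranged from 35.7% to 56.8% in the first block and from 44.3% to 60.6% in the fourth. Block levels of sparsely covered embryos can rest on few windows: control replicate 9 was at 0% in the first block from 3 windows and at 90.5% in the fourth from 7.

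**Figure D3:**
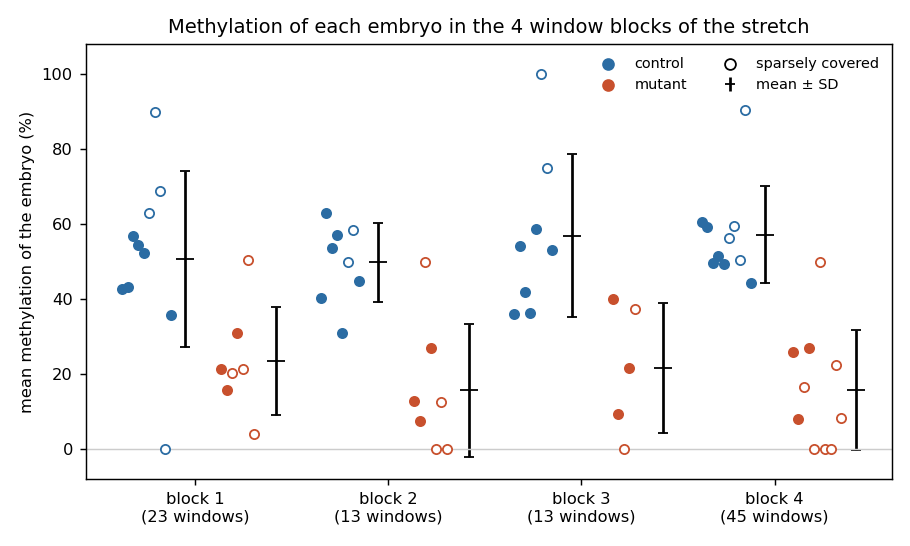
Mean methylation in percent of each embryo (points; open points are sparsely covered) in the 4 window blocks of the small-RNA stretch, with group mean and SD. The mutant mean lies between 15.7% and 23.5% in every block and the control mean between 49.8% and 57.2%.

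Of the windows with at least 5 embryos per group, the largest difference towards lower levels was at 109707149, in the fourth block. Its 8 control embryos ranged from 41.7% to 100% (median 77.8%) and its 6 mutant embryos stood at 50%, 8.33%, 0%, 17.9%, 0% and 37.5% (median 13.1%). The groups overlapped at 1 mutant embryo, replicate 11, and the difference was -57.65 points. The overlapping window at 109706592 differed by -53.3 points.

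At other windows of the stretch the groups overlapped more widely. The window at 109690767 ranged from 0% to 66.7% in 8 control embryos (median 53.9%) and from 0% to 50% in 5 mutant embryos, 3 of which were at 0%. At 109535424 control embryos were spread from 0% to 100%, with 3 of 8 at 0%. The best covered window, at 109711312, ended the stretch with 41.5% ± 25.96 (SD, n = 9) against 36.4% ± 36.4 (SD, n = 6), and mutant replicate 16 was at 100% there.

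Of the 82 windows, 2 had a higher mean in mutant embryos. At 109553881 the 7 control embryos ranged from 0% to 68.2% (median 16.7%) and the 6 mutant embryos from 0% to 50% (median 40.5%), a difference of 8.76 points. At 109527126, the first window after the little methylated Meg3 surroundings, 8 control embryos ranged from 35.7% to 100%, while the 3 mutant embryos with a value were at 100%, 0% and 100%. Both windows lie in the first block and the groups overlapped at each.

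The window at 109527126 and those at 109493817, 109507222, 109557940 and 109682188 were named after their values were seen. At 109557940 the groups did not overlap: 6 control embryos ranged from 54.9% to 93.8% (median 66.5%) and the 4 mutant embryos stood at 10%, 35.7%, 9.84% and 8%. At 109682188, 7 control embryos ranged from 16.7% to 100% (median 50%) and 4 of 5 mutant embryos were at 0%, the other at 13.6%.

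Pooled over embryos, values in the stretch also differed in kind. Of 616 control values, 69.6% lay from 25% to 75%, 6.33% were exactly 0% and 17.2% exceeded 75%. Of 375 mutant values, 33.6% lay from 25% to 75%, 37.1% were exactly 0% and 2.13% exceeded 75%. Values of 0% were more frequent over all windows, at 44.95% of control and 54.5% of mutant values. The share at 0% in the stretch was thus the smaller one in both groups. In densely covered mutant embryos it was 26.1% in the stretch and 46.4% over all windows. In densely covered control embryos it was 5.47% and 41.2%. The median value in the stretch was 50% in control and 12.5% in mutant embryos. In densely covered embryos alone 73.6% of 512 control values and 37.2% of 253 mutant values lay from 25% to 75%, against 23.3% and 19.3% of their values over the whole table. Intermediate levels made up most pooled control values in the stretch and a minority of mutant values. Pooled values share embryos and overlapping windows. By embryo, the share from 25% to 75% ran from 20% to 79.8% in control and from 0% to 53.3% in mutant embryos. In densely covered embryos it ran from 55.8% to 79.8% and from 13.75% to 49.4%. The share at 0% by embryo overlapped too, from 2.20% to 30% in control and from 8.89% to 100% in mutant embryos.

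**Figure D4:**
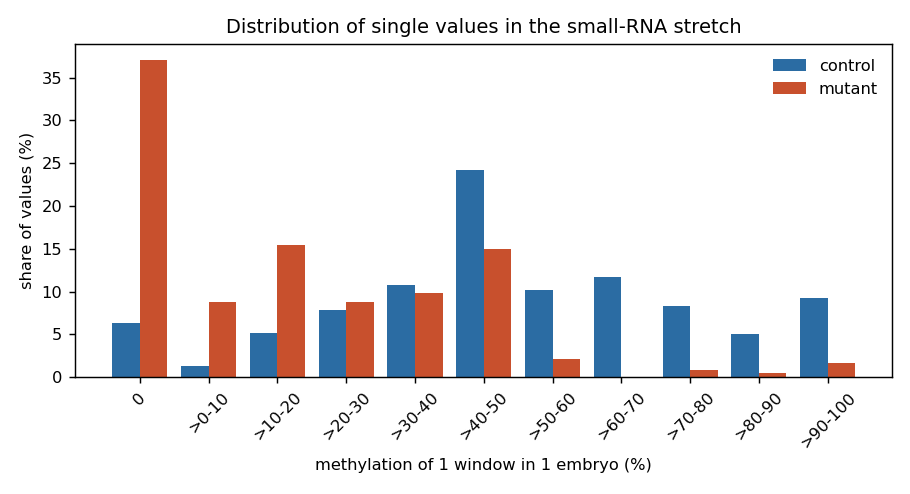
Share in percent of single values (1 window in 1 embryo), pooled over embryos, of the small-RNA stretch by methylation class. Drawn are 616 control (blue) and 375 mutant (orange) values. Control values peak at over 40% to 50% (24.2%), and the tallest mutant bar is at exactly 0% (37.1%). Over all windows, not drawn, 54.5% of mutant values and 44.95% of control values were exactly 0%.

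Mutant embryos differed among themselves. Over 69 windows of the stretch with a value in all 3 densely covered mutant embryos, the mean was 27.1% in replicate 11, 9.23% in replicate 12 and 28.1% in replicate 14. Replicate 12 was the lowest of the 3 on its own at 39 windows and the highest at 4. It was also the lowest of the 3 in each of the 4 blocks, at 15.8%, 7.68%, 9.31% and 8.16%. Replicate 14 was at 0% in 5 of the 69 windows, replicate 11 in 17 and replicate 12 in 27.

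Compared with the densely covered control embryos at 68 windows, replicate 12 was below every one of them at 54 windows and above at 0. Replicate 14 was below all of them at 37 windows and above all at 2, and replicate 11 was below at 26 and above at 1. At the remaining windows their values lay within the control range. Over all 28807 windows of the table with the same coverage, replicate 12 was below every densely covered control embryo at 9.33%, replicate 14 at 5.00% and replicate 11 at 7.45%. In the stretch the shares below were 79.4%, 54.4% and 38.2%. Over all 28807 windows, replicate 12 was above every densely covered control embryo at 8.70%, replicate 14 at 21.3% and replicate 11 at 13.9%. Across the table, replicates 14 and 11 thus lay above the control range more often than below it. No value can lie below a control at 0%, and 41.2% of the values of densely covered control embryos over the table were 0%. Replicate 12 also had the lowest level outside the domain (6.16%), and the part of that level in its counts was not tested.

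On the Dio3 side the groups overlapped. Its 18 windows run from 109790437 to the end of the domain, and in RefSeq order the genes between Mirg and Dio3 are 10 long non-coding RNAs and 3 other genes, with 0 protein-coding ones. Control embryos ranged from 0% to 38.5% (median 15.1%) and mutant embryos from 0% to 27.6% (median 15.0%). The means were 16.04% ± 10.4 (SD, n = 10) and 11.97% ± 11.2 (SD, n = 9). The mutant mean was lower at 11 of the 18 windows (61.1%), against 55.8% of all windows. It was lower by 20 points or more at 3 (16.7%, against 9.90% of all) and higher by as much at 1 (5.56%, against 5.20%). These shares lie near those of the whole table. The difference was -4.07 points over all embryos and 0.13 points over embryos with a value in at least 20 windows of the stretch.

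The window nearest the stretch, at 109790437, was named after its values were seen. Its 5 control embryos ranged from 28.6% to 57.1% (median 50%) and its 6 mutant embryos from 0% to 75% (median 15.5%). The difference was -24.8 points, and 4 of the 6 mutant embryos lay below the lowest control embryo. In densely covered embryos alone the difference was -7.10 points. The best covered windows of this side toward the stretch were intermediate in level. The window at 109861028 ranged from 8.33% to 83.3% in 6 control embryos (median 50.5%) and from 0% to 50% in 6 mutant embryos (median 46.4%). At 109875219 the 8 control embryos were spread from 0% to 100% (median 20.2%), and the 4 mutant embryos from 0% to 33.3%. Further on, at 110047254, 7 control embryos ranged from 0% to 100% (median 25%), while 6 of 8 mutant embryos were at 0% and the others at 50% and 11.1%. The means there were 33.3% and 7.64%.

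Several other windows of the Dio3 side were low or close between the groups. At 110199926 the means were 16.9% ± 15.98 (SD, n = 9) and 17.2% ± 16.3 (SD, n = 5). The window at 110153996 had the smallest difference of the domain, with 2.71% ± 3.39 (SD, n = 7) and 2.61% ± 4.27 (SD, n = 6). The 3 overlapping windows from 110242502 to 110247609 were nearly unmethylated, at 4.48% ± 7.31 (SD, n = 9) and 0.62% ± 1.02 (SD, n = 6). At the window starting at 110244064 the highest of 9 control values was 29.2%, in replicate 6, and the highest mutant value was 2.42%.

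Some windows of the Dio3 side were higher in mutant embryos. The 4 with the widest margins were named after their values were seen. At 109912281 the control embryos were at 5.26% (replicate 1), 8.33% (replicate 2) and 0% (5 embryos). The 4 mutant embryos stood at 50%, 21.4%, 50% and 0%. The means were 1.94% ± 3.43 (SD, n = 7) and 30.4% ± 24.3 (SD, n = 4), and the groups overlapped at 0%. The window at 110052358, next to the one at 110047254, had means of 13.6% (n = 7) and 33.3% (n = 4). The means were 19.9% (n = 3) and 38.1% (n = 3) at 110279424, and 13.96% (n = 8) and 26.4% (n = 4) at 110202297. The groups overlapped at these windows too.

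At the limits of the domain, levels were low and the groups overlapped. The last window before it, at 109286463, had means of 18.4% and 6.25%, and the first inside 0.56% and 2.08%. The last window inside, at 110288819, had means of 17.46% and 0% in 4 and 3 embryos. The first window after the domain, at 110410554, had means of 7.80% and 1.11%.

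The share of covered windows, which is counted without using the methylation values, overlapped between the groups. The share of domain windows with a value, divided by the same share over all windows, averaged 1.19 ± 0.16 in control embryos (SD, n = 10). In mutant embryos it averaged 1.20 ± 0.37 (SD, n = 10). The difference was 0.01, and 6 of 10 mutant values were under the control mean (two-sided permutation test, p = 0.922). Mutant embryos were more spread, from 0.64 to 1.85, against 1.06 to 1.64 in control embryos.

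Whether the stretch followed the methylation of the rest of the genome was asked within each group, since the choice of the region did not use differences inside a group. The level outside the domain was taken over 1594 windows elsewhere in the genome, leaving out the surroundings of the domain on chromosome 12, as the mean deviation from each window's mean, and embryos needed a value in at least 5 windows of the stretch. Among control embryos Pearson's r was 0.57 (n = 10, permutation p = 0.0806) and Spearman's rho 0.43 (permutation p = 0.217). Among mutant embryos r was 0.46 (n = 9, exact permutation p = 0.212) and rho 0.43 (exact permutation p = 0.2499). Over the 6 mutant embryos with at least 20 windows of the stretch r was 0.81 (exact permutation p = 0.0688 after Benjamini-Hochberg adjustment). Without the 2 embryos farthest from the median outside level, r was 0.04 in control and 0.27 in mutant embryos. In control embryos the value thus rested on replicates 7 and 10.

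Coverage was examined in the same way within classes of at least 6 embryos, because densely and sparsely covered embryos form separate clusters. In the 6 densely covered control embryos r was 0.69 (exact permutation p = 0.0667) and rho 0.60 (exact permutation p = 0.242). In the 6 sparsely covered mutant embryos with enough windows r was 0.80 (exact permutation p = 0.0431) and rho 0.83 (exact permutation p = 0.0583). Over the 4 relations, none passed after Benjamini-Hochberg adjustment. The adjusted permutation p for r was 0.107 for the control relations and the sparse mutant one and 0.212 for the mutant relation to the outside level, and for rho it was 0.233 to 0.2499. Without the 2 embryos of extreme coverage, r was 0.89 in the control class and 0.38 in the mutant class, over 4 embryos each.

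**Figure D5:**
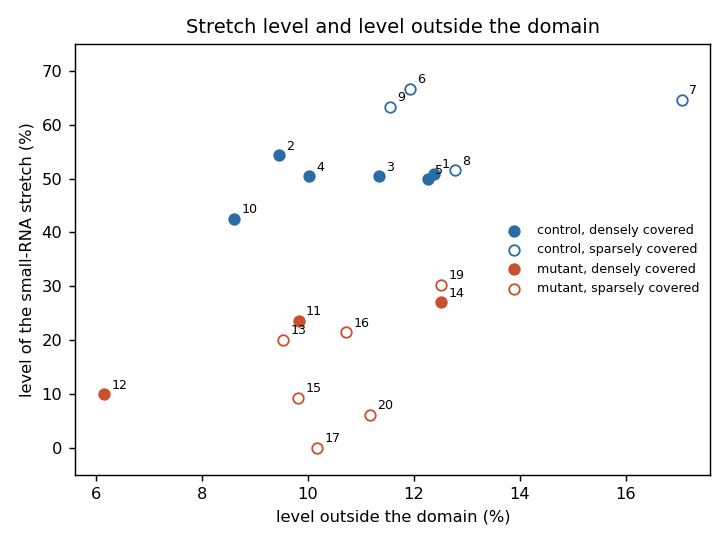
Level of the small-RNA stretch against the level outside the domain, both in percent, for the 19 embryos with at least 5 covered windows in the stretch; numbers are replicates and open points are sparsely covered embryos. Control and mutant embryos form separate bands, and mutant replicate 12 is the lowest in outside level (6.16%) while control replicate 7 is the highest (17.1%).

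Among windows elsewhere, 3 were most like the stretch in their levels across embryos. Likeness was Spearman's rho with the level of the stretch over embryos with both values, at least 15 of them, among 1737 windows. The window on chromosome 19 from 6972986 to 6976485 had a rho of 0.86 over 15 embryos, with a control mean of 29.0% and a mutant mean of 1.18%. The window on chromosome 17 from 25464113 to 25467612 had 0.85 over 16 embryos, with 56.4% and 11.1%. The window on chromosome 7 from 28869337 to 28872836 had 0.85 over 17 embryos, with 28.7% and 1.94%. These values pool both groups, so each rho also carries the group difference for which the region was picked. They share embryos and coverage with the stretch, and carry no test.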

How the data were processed

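Single-blastocyst bisulfite libraries of 10 control and 10 mutant embryos gave the data; the submitters' processing notes name Trim Galore 0.4.4, Bismark 0.18.2 and build GRCm39 (mm39). In the table the authors deposited, the score of a promoter window in an embryo is its methylation level in percent, made from bisulfite calls. How calls were combined, and any coverage minimum, is not given in the sources used here.

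Of 54080 rows, 46 repeated another and were dropped. Of 491705 values, 1594 (0.324%) were whole numbers above 100, read as percents without their decimal point and divided by 1000; 0 still exceeded 100. Members and lists were chosen with earlier results of these data known.

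The planned end of the stretch, a gap of over 100 kb, occurred 0 times, so the widest gap was used instead. The level of an embryo is the plain mean over covered windows. Named windows are the Meg3 window and its neighbours, up to 6 best covered non-overlapping windows per sub-region, the largest and smallest differences with at least 5 embryos per group, and the windows at the limits. Relations and coverage were tested by two-sided permutation (100000 resamples; exact below 10). RefSeq tables on GRCm38.p6 gave names, gene order and sequences only. Python 3.11.15, numpy 2.4.6, pandas 2.3.3 and scipy 1.17.1 were used. The rule of at least 20 points lower was tried in separate code on shuffled and artificially lowered values. A permutation count for a perfect relation was tried there too. The functions that gave the reported counts and p-values were not themselves tested. Alternatives were overlap-free windows, other means, coverage classes, stricter minimums and left-out values.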

Additional observations from a re-analysis of the deposited data

Results flagged for a closer look

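In 3 of 10 groups of values checked, 1 embryo lay further from its nearest neighbour than its group's spread allows at the 95% level. Chance flags about 1 in 20 groups if values are normally distributed. In the Meg3 windows 4 of 10 control and 5 of 8 mutant levels were exactly 0%, so that rate need not hold there. Control replicate 10 stood at 38.5% in the Meg3 windows, from 1 covered window. Mutant replicate 15 stood at 33.3% there, from 2 overlapping windows. Control replicate 8 had the highest relative share of covered domain windows among control embryos, at 1.64. In the stretch, no embryo of either group was set apart in this way.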

How the results depend on the processing

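The alternatives without control replicate 7 or 10, the counts in densely covered embryos and the counts over windows that do not overlap were chosen after seeing the data. No paired analysis was possible because no replicate number occurs in both groups (1 to 10 and 11 to 20). The stretch difference of -39.7 points moved beyond the spread between embryos in densely covered embryos alone (-29.6 points). Under the other 10 alternatives it lay from -49.1 to -31.9 points. The differences of the Dlk1 side, Meg3 and the Dio3 side stayed within 1 SD of their values under all 10 alternatives each, those of Meg3 and the Dio3 side with changes of sign. The count of 62 stretch windows lower by at least 20 points was 23 of 35 with at least 5 embryos per group (all windows: 6.45%) and 18 of 26 among windows that share no sequence. The count of 16 whose groups did not overlap was 1 (all windows: 0.304%) and 6 there. For windows that share no sequence, the matching share over all windows was not counted. With at least 7 embryos per group 0 windows of the stretch remained, so no count could be given. The relation to coverage in sparsely covered mutant embryos could not be computed with at least 20 windows. The relation to the outside level in mutant embryos had an r of 0.81 in place of 0.46 with at least 20 windows. No relation or coverage test that could be computed changed its side of the threshold. Read depth is unknown and limits every single value.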
